A study of Mus musculus with 6 samples.

Results

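The genes described here encode lectin-like receptors of natural killer (NK) cells and some T cells: the NKG2 chains, their partner CD94, the receptors KLRE1, KLRI1 and KLRI2, and KLRG1. They were taken by symbol, as Klrk1, Klrc1, Klrc2, Klrc3, Klrd1, Klre1, Klri1, Klri2 and Klrg1, which are 9 of the 55450 genes in the table. All 9 were among the 13171 genes that passed the filter on low counts. The series was set up to ask whether unconventional lymphocytes within the gland's epithelium influence how mammary epithelial and basal cells differentiate. Its 6 bulk RNA sequencing libraries come from lymphocytes sorted out of the glands of mice late in pregnancy (E18.5). Of these, 3 are from lymphocytes labelled DN NK1.1+ and 3 are from T cells labelled CD8 beta+. DN stands for double negative, and the pair of markers that these cells lack is not named in the labels. The sample titles call the DN NK1.1+ cells T cells, while their cell type field calls them lymphocytes. The labels give no strain, genotype, age or treatment, and do not say whether cells of several mice were pooled. Nor do they state that replicates are separate animals, and p-values therefore measure only the spread between these libraries, which may be technical.

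These receptors are type II membrane proteins that let a lymphocyte read the state of a neighbouring cell. NKG2D, the product of Klrk1, is an activating homodimer that binds stress-induced ligands of the RAE-1, H60 and MULT1 families. CD94, from Klrd1, forms heterodimers with the inhibitory chain NKG2A or with the activating chains NKG2C and NKG2E, and in mice these bind the class I molecule Qa-1. KLRE1 pairs in rodents with KLRI1, an inhibitory chain, or with KLRI2, an activating one. KLRG1 is an inhibitory receptor for classical cadherins such as E-cadherin, the adhesion molecule of epithelia, and is best known from mature NK cells and from effector T cells late in differentiation.

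Depth was 11440721 to 12820875 counts in DN NK1.1+ and 7961360 to 14367299 counts in CD8 beta+ libraries, and 1 count was worth 0.0721 to 0.13 CPM (counts scaled to library size). The genes of the sort followed the labels, with means of 638 against 37.1 CPM for Klrb1c, which encodes NK1.1, 2.56 against 947 CPM for Cd8b1 and 162 against 909 CPM for Cd8a in DN NK1.1+ against CD8 beta+ libraries. Klrb1c lies in the same gene complex as the receptors, and how far the sort for NK1.1 set their levels was not tested. Among lists of cell type markers, 13 of 14 tested markers of NK and innate lymphoid cells were higher in DN NK1.1+ libraries and 0 lower, and the list summed to 4422 to 4828 CPM in DN NK1.1+ and 749 to 922 CPM in CD8 beta+ libraries (its most abundant gene was Gzma, 2.77 on the log2 scale). Of 14 markers of alpha-beta T cells, 12 were lower and 0 higher, with sums of 2055 to 2215 CPM in DN NK1.1+ and 5742 to 6074 CPM in CD8 beta+ libraries; Cd3g, the most abundant, had a log2 fold change of −0.13 and was not called. Of 8 tested markers of gamma-delta T cells, 7 were higher (Tcrg-C2 0.90), with sums of 466 to 497 CPM in DN NK1.1+ and 128 to 162 CPM in CD8 beta+ libraries. The alpha-beta list holds the sort genes Cd8a and Cd8b1, and the NK list holds the sort gene Klrb1c. The sort itself therefore fixed part of these counts and sums. The marker lists were also chosen with earlier results of these data known, so their counts describe the libraries and do not test cell identity. Tcrg-C4 is on both the NK and the gamma-delta list. DN NK1.1+ libraries thus held transcripts of both NK and T cell receptors, and the mix of cell types in the sorted cells was not measured. Milk genes varied between libraries, with sums over the luminal list of 423 to 2179.7 CPM in DN NK1.1+ and 729.5 to 1043 CPM in CD8 beta+ libraries, and 1 of its 10 tested genes was called, Epcam. Acta2 reached 93.9 CPM in DN NK1.1+ replicate 3 and 75.7 CPM in CD8 beta+ replicate 3, against 5.94 to 11.2 CPM in the other 4. Among tested markers of other cells, 2 of 12 for myeloid cells and 1 of 7 for B cells (most abundant Ighm) were higher. So were 1 of 5 for endothelium (most abundant Pecam1) and 2 of 2 for mast cells (most abundant Kit). The higher myeloid genes were Csf1r and Itgax, while the most abundant, Cd74, was not called (log2 fold change 0.30). For B cells 1 marker was lower. Of markers for myoepithelium (most abundant Acta2) 0 of 5 were called, and for fibroblasts and adipocytes (most abundant Col3a1) 0 of 6. The adipocyte genes Adipoq and Plin1 had 0 counts in all libraries. The part of these other cells in the receptor results was not tested.

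Transcripts of 8 of the 9 receptor genes were higher in DN NK1.1+ than in CD8 beta+ libraries and 0 were lower. Among all tested genes, 7.84% were called higher and 5.99% lower, where called means an adjusted p under 0.05 (Benjamini-Hochberg) in the quasi-likelihood test of edgeR, the source of each adjusted p of a gene below. At an unadjusted p under 0.05 the receptor count in the lower direction was also 0, as it was with DESeq2 and limma-voom. In the same 8 genes every DN NK1.1+ library lay above every CD8 beta+ library, a separation that 16% of all tested genes showed, while 0 of the 9 lay apart in the other direction, as 14.6% of all tested genes did. The median log2 fold change was 2.42 over the 9 genes and −0.0033 over all tested genes. Summed over the 9 genes, DN NK1.1+ libraries held 1907, 2006 and 1810.3 CPM, against 329.6, 364 and 445 CPM in CD8 beta+ libraries. The sum differed by 2.33 on the log2 scale, from group means of 1908 ± 98.01 and 379 ± 59.1 CPM (SD, n = 3 each). In bulk samples such as these, fewer cells of a type and less RNA per cell cannot be told apart.

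**Figure D1:**
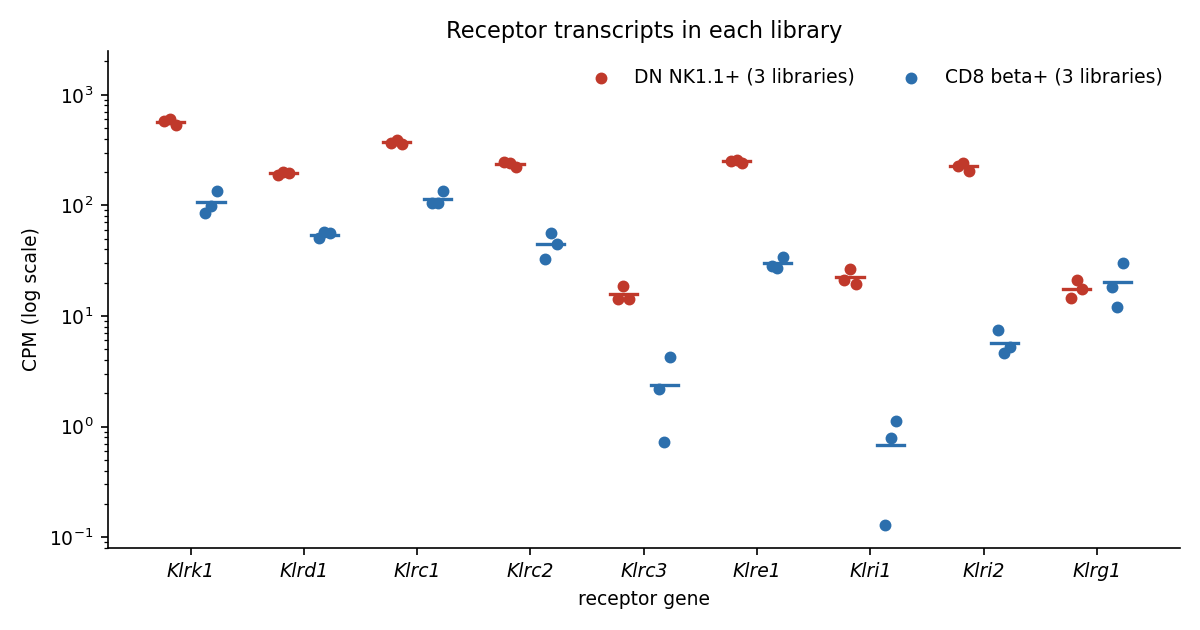
CPM of the 9 receptor genes on a log axis, with each library as a point and each group's mean as a line (3 DN NK1.1+ and 3 CD8 beta+ libraries). The groups are apart for every gene but Klrg1, and the widest gaps are those of Klri1 and Klri2.

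Klrk1, the NKG2D gene, was higher in DN NK1.1+ libraries and well expressed in both groups. Klrk1 had 575, 606 and 536 CPM in the DN NK1.1+ libraries, against 86.00, 99.3 and 134 CPM in the CD8 beta+ libraries. The DN NK1.1+ libraries lay closer together in proportion than the CD8 beta+ libraries, and the highest CD8 beta+ library, replicate 3, was far below the lowest DN NK1.1+ library. The difference was 5.37-fold (log2 fold change 2.42, SE 0.145, adjusted p = 1.51e-07). CD8 beta+ T cells thus still held Klrk1 at a clear level, with a group mean of 107 ± 24.9 CPM (SD, n = 3).

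The CD94 gene and the gene of its inhibitory partner had the smallest of the 8 increases. Klrd1 had 187, 199 and 196 CPM in the DN NK1.1+ libraries, against 50.3, 56.9 and 55.9 CPM in the CD8 beta+ libraries. The 3 libraries of each group lay close together and the groups did not overlap, with a 3.57-fold difference (log2 fold change 1.83, SE 0.101, adjusted p = 6.94e-09). For the NKG2A chain, Klrc1 had 369.8, 393 and 357 CPM in the DN NK1.1+ libraries, against 104, 106 and 135 CPM in the CD8 beta+ libraries. Here too the groups did not overlap, and the difference was 3.25-fold (log2 fold change 1.70, SE 0.112, adjusted p = 5.08e-08).

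The activating partners of CD94 were higher as well. Klrc2 had 247, 244 and 222 CPM in the DN NK1.1+ libraries, against 32.6, 56.7 and 44.9 CPM in the CD8 beta+ libraries. This gene encodes NKG2C, and its CD8 beta+ values spread more than those of Klrd1, with replicate 1 lowest and replicate 2 highest. Its difference was 5.28-fold (log2 fold change 2.40, SE 0.167, adjusted p = 1.89e-06). Klrc3, the NKG2E gene, was scarce in both groups, with 14.3, 18.6 and 14.3 CPM in DN NK1.1+ libraries, against 2.21, 0.721 and 4.21 CPM in CD8 beta+ libraries. It was 6.75-fold higher (log2 fold change 2.76, SE 0.483, adjusted p = 0.00246), and its size rested on single CD8 beta+ libraries: the log2 fold change was 2.27 without CD8 beta+ replicate 2, the lowest library, and 3.52 without replicate 3, the highest.

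Klrc1, Klrc2 and Klrc3 are near copies of each other, so the assignment of reads among them is uncertain. Over their longest coding sequences, Klrc2 and Klrc3 were identical in 88.1% of alignment columns, Klrc1 and Klrc2 in 81%, and Klrc1 and Klrc3 in 77.5%. Columns with a gap were counted as differences, so the likeness over paired bases alone is higher. Of all stretches of 50 bases in the coding sequence, 24.2% for Klrc1, 41.2% for Klrc2 and 36.6% for Klrc3 also occurred in a transcript of another gene. The deposited values of these 3 genes were fractional in all 6 libraries. With the 3 genes summed to 1 feature, the log2 fold change was 1.95 (adjusted p = 9.66e-09), between those of Klrc1 and Klrc2. The start of the coding sequence is shown for each gene, as a stretch in which Klrc1 differs from both genes of activating chains. Whether the differences gather there was not tested. Capitals mark bases of Klrc1 that differ from Klrc2 or have no partner in it. In Klrc2 and Klrc3 they mark bases that differ from Klrc1 or have no partner in it (5′ to 3′, GENCODE M21 models on mm10).
Klrc1, coding bases 1 to 120: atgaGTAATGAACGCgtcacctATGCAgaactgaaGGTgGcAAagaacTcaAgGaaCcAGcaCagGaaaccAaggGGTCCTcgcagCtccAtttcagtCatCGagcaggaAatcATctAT
Klrc2, coding bases 1 to 120: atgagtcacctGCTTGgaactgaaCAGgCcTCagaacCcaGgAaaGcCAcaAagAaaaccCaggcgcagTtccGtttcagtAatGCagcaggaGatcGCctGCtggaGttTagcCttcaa
Klrc3, coding bases 1 to 120: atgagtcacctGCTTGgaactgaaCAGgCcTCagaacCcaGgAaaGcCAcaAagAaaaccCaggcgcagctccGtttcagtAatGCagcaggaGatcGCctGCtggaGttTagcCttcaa
In these 120 bases Klrc1 holds 47 such bases, Klrc2 33 and Klrc3 32.

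KLRE1 and its partners showed the largest increases of the 9 genes. Klre1 had 249.7, 259 and 241 CPM in the DN NK1.1+ libraries, against 28.4, 26.96 and 34.1 CPM in the CD8 beta+ libraries. The DN NK1.1+ values were among the most even of the set, and the difference was 8.39-fold (log2 fold change 3.07, SE 0.115, adjusted p = 8.89e-11). Klri2, for the activating partner, was low in the CD8 beta+ libraries: Klri2 had 228, 239.7 and 206 CPM in the DN NK1.1+ libraries, against 7.39, 4.61 and 5.24 CPM in the CD8 beta+ libraries. The 40.04-fold difference (log2 fold change 5.32, SE 0.159, adjusted p = 7.86e-12) had the fifth-lowest p of all 13171 tested genes, and 0.25% of tested genes had a log2 fold change at least as high.

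The gene of the inhibitory partner, Klri1, had few counts, on 838 bases of annotated exons against 3913 for Klri2. Per kilobase of exons the DN NK1.1+ means were 26.7 for Klri1 and 57.4 for Klri2. Klri1 had 21.1, 26.3 and 19.6 CPM in the DN NK1.1+ libraries, against 0.130, 0.793 and 1.13 CPM in the CD8 beta+ libraries. The CD8 beta+ values come from 1, 11 and 11 counts, against 245, 315 and 259 counts in DN NK1.1+ libraries. The difference was 30.6-fold (log2 fold change 4.93, SE 0.404, adjusted p = 6.86e-07), and its log2 fold change lay between 4.54 without CD8 beta+ replicate 1 and 5.34 without CD8 beta+ replicate 3. Klri1 and Klri2 were identical in 77% of coding alignment columns, gaps counted as differences, and 6.62% of their 50-base stretches were shared between them. Their coding starts differ at many positions, which are capitals below (bases that differ from, or have no partner in, the other gene).
Klri1, coding bases 1 to 120: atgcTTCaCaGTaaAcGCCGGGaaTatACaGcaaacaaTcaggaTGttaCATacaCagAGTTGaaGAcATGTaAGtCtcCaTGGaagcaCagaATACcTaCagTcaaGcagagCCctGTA
Klri2, coding bases 1 to 120: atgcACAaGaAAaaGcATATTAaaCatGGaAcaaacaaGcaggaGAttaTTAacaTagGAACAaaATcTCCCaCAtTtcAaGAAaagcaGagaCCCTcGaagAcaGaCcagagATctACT
Each start holds 56 such bases of 120.

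Klrg1, which encodes the cadherin receptor, did not pass the test. Klrg1 had 14.5, 20.99 and 17.6 CPM in the DN NK1.1+ libraries, against 18.3, 11.97 and 30.2 CPM in the CD8 beta+ libraries. The groups overlapped, and both the lowest and the highest library were CD8 beta+ libraries, replicates 2 and 3. Its log2 fold change was −0.18 (SE 0.297, adjusted p = 0.775), and it changed sign to 0.23 without CD8 beta+ replicate 3.

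Because all 9 genes were read in the same libraries, their shares of the summed receptor CPM show which of them moved more than the rest, with no scaling between libraries. Klri2 made up 11.8% ± 0.335 of the sum in DN NK1.1+ and 1.56% ± 0.591 in CD8 beta+ libraries (SD, n = 3 each, as for all shares). Klre1 made up 13.1% ± 0.222 in DN NK1.1+ and 7.90% ± 0.635 in CD8 beta+ libraries. Both shares were larger in DN NK1.1+ libraries. Klrc1 took 19.6% ± 0.162 in DN NK1.1+ and 30.3% ± 1.27 in CD8 beta+ libraries. Klrd1 took 10.2% ± 0.567 in DN NK1.1+ and 14.5% ± 1.67 in CD8 beta+ libraries. These CD94 and NKG2A shares were smaller in DN NK1.1+ libraries, as was that of Klrg1, at 0.925% ± 0.149 in DN NK1.1+ and 5.21% ± 1.78 in CD8 beta+ libraries. Klrk1 held 29.97% ± 0.325 in DN NK1.1+ and 27.9% ± 2.10 in CD8 beta+ libraries. Klrc2 held 12.5% ± 0.443 in DN NK1.1+ and 11.9% ± 3.23 in CD8 beta+ libraries. The difference was smaller than the SD of the CD8 beta+ libraries for Klrc2 and about as large as that SD for Klrk1. Klri1 and Klrc3 each made up under 2% in every library.

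**Figure D2:**
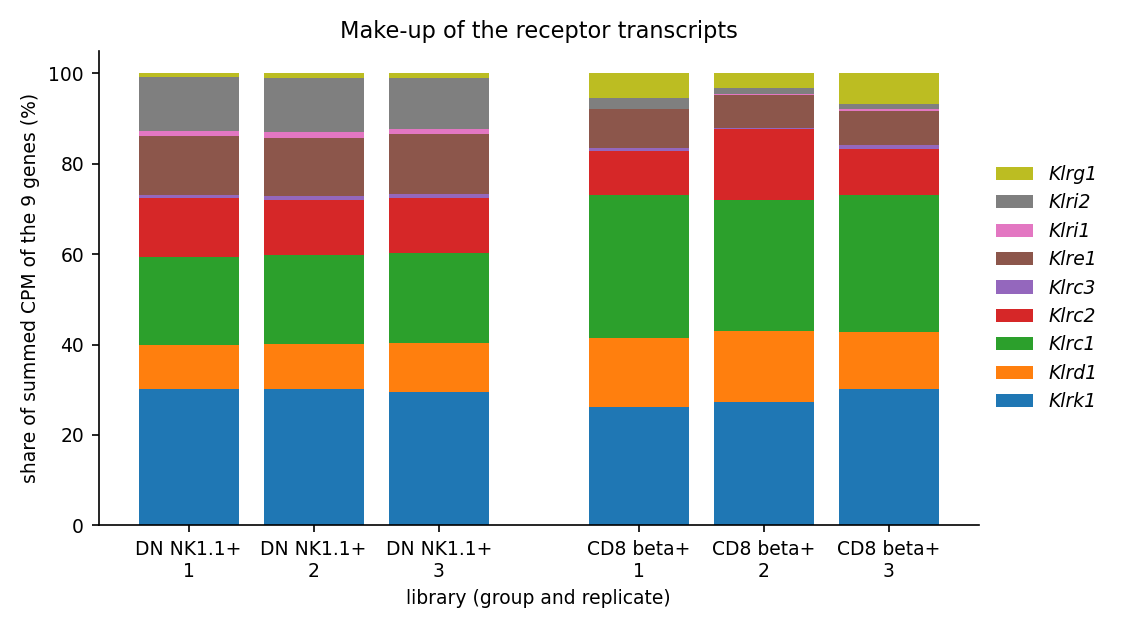
Share of each receptor gene in the summed CPM of the 9 genes, as stacked bars for each of 3 DN NK1.1+ and 3 CD8 beta+ libraries. The Klri2 segment averages 11.8% in DN NK1.1+ and 1.56% in CD8 beta+ libraries, and the Klrc1 segment 19.6% in DN NK1.1+ and 30.3% in CD8 beta+ libraries.

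A set of 4 ratios of counts within a library was compared between the groups with a two-sided exact permutation test. With 3 libraries against 3 this exact test cannot go below p = 0.1, and counts were not divided by gene length, so a ratio is not one of molecules. All ratios were taken with 0.5 added to each count. The ratio of Klrc2 to Klrc1, an activating against an inhibitory partner of CD94, was 0.669, 0.620 and 0.623 in DN NK1.1+ libraries, against 0.313, 0.536 and 0.333 in CD8 beta+ libraries. The groups did not overlap, and the difference of 0.74 on the log2 scale gave the smallest p the test allows (exact p = 0.1, adjusted 0.2 over the 4 ratios). Klrk1 to Klrd1 was 3.07, 3.04 and 2.73 in DN NK1.1+, against 1.71, 1.75 and 2.40 in CD8 beta+ libraries, also without overlap (log2 difference 0.61, exact p = 0.1, adjusted 0.2). The ratio of the NKG2A gene to the CD94 gene, Klrc1 to Klrd1, was 1.98, 1.98 and 1.82 in DN NK1.1+, against 2.07, 1.86 and 2.41 in CD8 beta+ libraries, and the groups overlapped (log2 difference −0.13, exact p = 0.4, adjusted 0.533). For Klri2 to Klri1 the ratios were 10.8, 9.09 and 10.5 in DN NK1.1+, against 38.3, 5.61 and 4.48 in CD8 beta+ libraries, where the first value rests on 1 Klri1 count (log2 difference 0.033, exact p = 1, adjusted 1). With nothing added to the counts the sign changed, to −0.19 (exact p = 1). Without CD8 beta+ replicate 1 the log2 difference was 1.01 (exact p = 0.1).

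To set the genes against each other, CPM was divided by exon length (RPKM, CPM per kilobase of all annotated exons). In DN NK1.1+ libraries the order was Klrc1 (188 ± 9.38 RPKM, SD, n = 3), Klrd1 (152 ± 4.93), Klrk1 (79.6 ± 4.87), Klre1 (71.5 ± 2.47), Klri2 (57.4 ± 4.37), Klrc2 (40.9 ± 2.33), Klri1 (26.7 ± 4.23), Klrc3 (21.4 ± 3.42) and Klrg1 (12.5 ± 2.31). Neighbours in this order were apart in all libraries, apart from Klri1 and Klrc3, which overlapped. In CD8 beta+ libraries Klrc1 (57.95 ± 8.67 RPKM) and Klrd1 (42.4 ± 2.76) led again. Below them came Klrk1 (14.8 ± 3.46), Klrg1 (14.3 ± 6.55), Klre1 (8.54 ± 1.08), Klrc2 (7.69 ± 2.07), Klrc3 (3.23 ± 2.38), Klri2 (1.47 ± 0.373) and Klri1 (0.817 ± 0.607), each of which overlapped the next. The order depends on which length is used. Klrk1 has 7183 bases of annotated exons but 1270 in the transcript with its longest coding sequence, and with such single-transcript lengths Klrk1 came first in DN NK1.1+ libraries at 450.4 CPM per kilobase. Klrd1 (211), Klrc2 (207), Klre1 (193) and Klrc1 (188) then followed without clear steps, above Klri2 (57.4), Klri1 (26.7), Klrc3 (22.02) and Klrg1 (12.5).

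On build mm10, 8 of the 9 genes form a cluster of 163 kb on chromosome 6. In chromosome order these are Klre1 (129577905 to 129585827 on the plus strand), Klrd1 (129591782 to 129598775 on the plus strand), Klrk1 (129610323 to 129623864 on the minus strand), Klrc3 (129639064 to 129643337 on the minus strand), Klrc2 (129647496 to 129660689 on the minus strand), Klrc1 (129666015 to 129678973 on the minus strand), Klri1 (129697218 to 129717132 on the minus strand) and Klri2 (129729041 to 129740484 on the minus strand). Klrg1 lies 7.30 Mb from the cluster, at 122270596 to 122282882 on the minus strand. The 8 clustered genes are the 8 that were called higher. Klri1 and Klri2, with the largest increases, stand next to each other at one end, and Klre1 stands at the other. The remaining annotated genes inside the cluster are Gm44135, Gm7309 and Mir680-1. Gm44135, a single-exon transcript of unknown coding status, was also higher, at a mean of 4.71 CPM in DN NK1.1+ and 0.552 CPM in CD8 beta+ libraries (log2 fold change 3.06, adjusted p = 0.0289). Gm7309 had 3 counts in all and Mir680-1 had 0, where 3 counts in a library correspond to 0.216 to 0.389 CPM.

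Within 1 Mb on either side of the Klrk1 start, 38 genes were tested. Besides the 8 receptor genes, 18 of the other 30 were higher, 1 was lower and 11 were not called. Most of the higher neighbours belong to the Ly49 (Klra) and NKR-P1 (Klrb1) families of the same gene complex. Of 10 tested genes on a list of Ly49 receptors, which holds no pseudogenes, 8 were higher and 0 lower, with a median log2 fold change of 3.52. Klra4 (7.97), Klra8 (7.64), Klra9 (4.40) and Klra1 (4.12) led this list on the log2 scale. Without CD8 beta+ replicate 3, the log2 fold change was 8.63 for Klra4 and 5.24 for Klra9. The tested pseudogenes of the family, Klra14-ps and Klra13-ps, were called higher too. Klra14-ps, at 8.18, lay above every gene of the list and had 10.86 without CD8 beta+ replicate 2. Klra13-ps had 1.56, and its call ended without CD8 beta+ replicate 1 or DN NK1.1+ replicate 2 (adjusted p = 0.0564 and 0.0521). Of 7 tested genes of NKR-P1 receptors and their ligands, 5 were higher and 1 lower, with a median of 3.87. Klrb1b (7.52), Klrb1a (4.41), Klrb1c (4.10) and Klrb1f (3.87) led there, Klrb1c being a gene of the sort; Klrb1b had 8.97 without CD8 beta+ replicate 2. Ly49 genes resemble each other closely, and reads may have been divided among them. Of 4 other tested lectin-like or neighbouring genes, only Gabarapl1, an autophagy gene next to Klre1, was called (log2 fold change 0.76, SE 0.215, adjusted p = 0.0264), and leaving out CD8 beta+ replicate 1 or 2 or DN NK1.1+ replicate 2 or 3 ended that call (adjusted p = 0.0809 to 0.132).

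**Figure D3:**
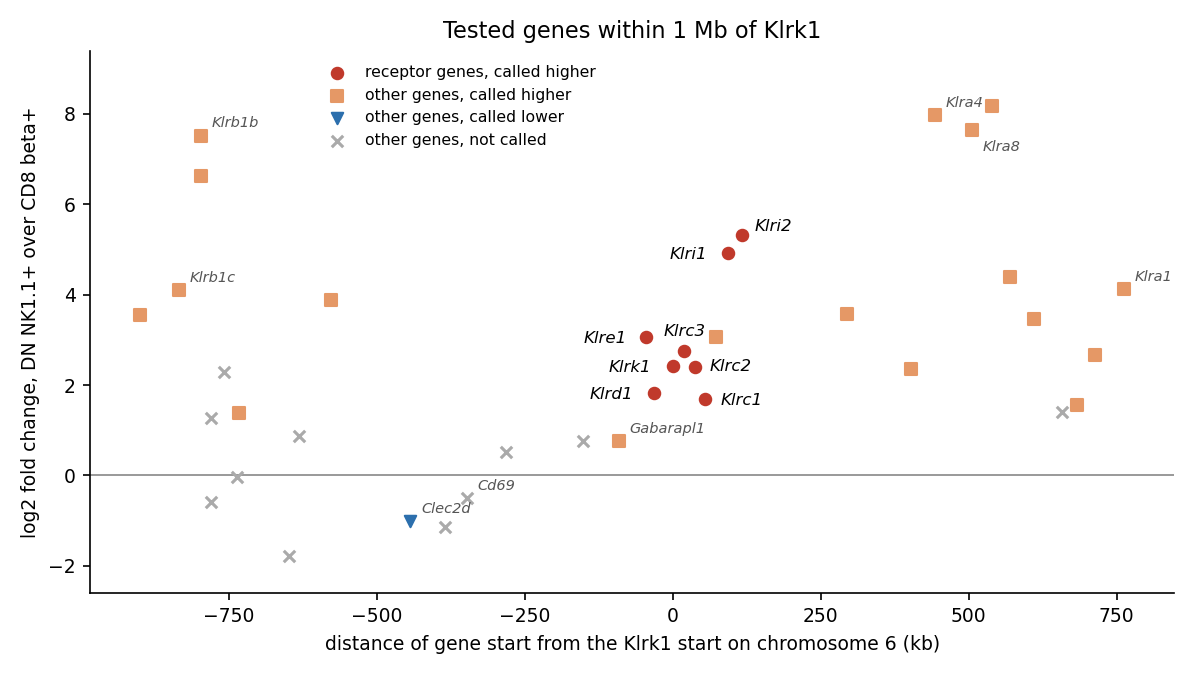
Log2 fold change (DN NK1.1+ over CD8 beta+) of the 38 tested genes against the distance of their starts from the Klrk1 start in kb, by call. The 8 receptor genes lie between 1.70 and 5.32, and the 30 other genes comprise 18 called higher, 1 called lower (Clec2d) and 11 not called.

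Promoter sequences of 300 bases were found in RefSeq (GRCm38.p6) for 6 of the 9 genes: Klrk1, Klrc1, Klrc2, Klrc3, Klre1 and Klri1. They cover 250 bases before and 50 after the RefSeq gene start. For Klrc2, Klrc3 and Klre1 the GENCODE M21 gene given above starts further upstream. More than 50 bases of the Klrc2 and Klrc3 sequences, and all of the Klre1 sequence, therefore lie within the GENCODE gene. The 6 sequences were searched on both strands for 6 short motifs of transcription factors of lymphocytes. The RUNX motif TGTGGT, whose other strand reads as ACCACA, occurred in 5 of the 6, all but Klri1, and in 16.8% of all 32851 promoters of that table. Klrc2 and Klrc3 held it at a pair of places each. The RUNX matches of Klrc2 and Klre1 lie within the GENCODE gene, and those of Klrc3 lie close to its GENCODE start. Of 6 promoters, 0 held the T-box motif GGTGTGA (3.98% of all), the ETS motif AGGAAG (35.4%), the STAT motif TTCNNNGAA (8.3%) or the GATA motif AGATAA (11.2%). The TCF/LEF motif CTTTGA occurred in 1, Klrk1 (16% of all). None of these motifs overlapped a RUNX match. A match is a description of the letters and not of binding. Klrc2 and Klrc3 were also near copies here, identical in 75.1% of 341 alignment columns, against 43.6% to 49.1% of columns for the other pairs. Columns with a gap were counted as differences. The Klrc2 and Klrc3 sequences of 300 bases cover the same stretch at shifted positions, so 75.1% understates their likeness. Their RUNX matches lie in that shared stretch and are not separate finds. The promoters of the NKG2 genes are shown 5′ to 3′ on the gene's strand, with RUNX matches in capitals.
Klrk1 promoter, chr6:129623815-129624114, minus strand: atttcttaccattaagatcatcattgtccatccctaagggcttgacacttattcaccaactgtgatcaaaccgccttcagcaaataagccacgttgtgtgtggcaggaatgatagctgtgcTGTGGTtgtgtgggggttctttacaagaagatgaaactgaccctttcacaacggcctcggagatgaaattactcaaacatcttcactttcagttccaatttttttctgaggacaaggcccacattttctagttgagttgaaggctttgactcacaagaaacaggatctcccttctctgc
Klrc1 promoter, chr6:129678924-129679223, minus strand: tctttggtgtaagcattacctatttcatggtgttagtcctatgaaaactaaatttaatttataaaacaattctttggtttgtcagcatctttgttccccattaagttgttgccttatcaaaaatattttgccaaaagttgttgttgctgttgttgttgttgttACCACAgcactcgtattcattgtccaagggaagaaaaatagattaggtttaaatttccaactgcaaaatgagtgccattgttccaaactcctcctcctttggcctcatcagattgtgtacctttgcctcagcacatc
Klrc2 promoter, chr6:129660547-129660846, minus strand: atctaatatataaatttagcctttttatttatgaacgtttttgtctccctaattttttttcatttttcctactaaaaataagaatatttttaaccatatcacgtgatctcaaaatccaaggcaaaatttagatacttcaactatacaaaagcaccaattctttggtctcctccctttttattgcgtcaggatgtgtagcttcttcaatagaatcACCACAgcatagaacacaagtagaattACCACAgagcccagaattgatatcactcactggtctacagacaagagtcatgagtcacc
Klrc3 promoter, chr6:129643239-129643538, minus strand: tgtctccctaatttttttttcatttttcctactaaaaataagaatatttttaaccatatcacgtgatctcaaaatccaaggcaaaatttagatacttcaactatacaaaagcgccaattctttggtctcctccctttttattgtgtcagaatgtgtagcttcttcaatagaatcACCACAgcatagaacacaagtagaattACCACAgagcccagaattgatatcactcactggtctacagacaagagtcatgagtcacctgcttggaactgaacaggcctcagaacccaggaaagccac

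Of 20 genes for transcription factors of NK and effector T cells, 19 were tested, of which 6 were higher and 4 lower (median log2 fold change 0.19). Irf8 averaged 145 ± 8.67 CPM in DN NK1.1+ and 16.2 ± 2.42 CPM in CD8 beta+ libraries (SD, n = 3 each, log2 fold change 3.16). Ikzf2, which encodes Helios, had a log2 fold change of 2.35, and Nfil3, needed for NK cell development, one of 1.66. Tcf7, the TCF-1 gene, was lower, at 121 ± 11.4 CPM in DN NK1.1+ and 297 ± 70.8 CPM in CD8 beta+ libraries (log2 fold change −1.29, SE 0.167, adjusted p = 4.98e-04). The RUNX3 gene was not called. Runx3 had 146, 165 and 172 CPM in the DN NK1.1+ libraries, against 151, 159.8 and 169.6 CPM in the CD8 beta+ libraries (log2 fold change 0.0093, adjusted p = 0.971), and its sign changed with the scaling. Eomes was not called either (0.14, adjusted p = 0.392).

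The activating receptors carry no signalling motif of their own and depend on adaptor proteins. Of their adaptor genes, Tyrobp was higher in DN NK1.1+ libraries and Hcst did not pass the test. Tyrobp encodes DAP12, the adaptor of NKG2C, NKG2E and, in mice, of a form of NKG2D. Tyrobp had 308, 338 and 382 CPM in the DN NK1.1+ libraries, against 20.1, 14.1 and 27.2 CPM in the CD8 beta+ libraries. The groups were far apart (16.9-fold, log2 fold change 4.08, SE 0.229, adjusted p = 8.86e-06). Hcst encodes DAP10, the other adaptor of NKG2D. Hcst had 52.6, 58.4 and 73.8 CPM in the DN NK1.1+ libraries, against 77.2, 70.1 and 73.5 CPM in the CD8 beta+ libraries. These values overlapped, and the gene was not called (log2 fold change −0.25, SE 0.133, adjusted p = 0.263); it was lower without DN NK1.1+ replicate 3 (−0.41, adjusted p = 0.0481).

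Over the list of 20 adaptor and signalling genes, 7 were higher, 5 lower and 8 not called, with a median log2 fold change of −0.014. The higher genes include Fcer1g, for an adaptor chain of Fc and other receptors, at 817 ± 85.9 CPM in DN NK1.1+ and 64.2 ± 13.9 CPM in CD8 beta+ libraries (SD, n = 3 each, log2 fold change 3.67). Plcg2, for a phospholipase, and Syk, for a kinase that binds phosphorylated DAP12, had log2 fold changes of 3.19 and 2.72. Vav3 (1.40), Pik3r1 (0.78) and Sh2b3 (0.56) completed the higher genes. Relatives best known from T cell receptor signalling were lower: Plcg1 averaged 61.3 ± 2.81 CPM in DN NK1.1+ and 219 ± 8.79 CPM in CD8 beta+ libraries (log2 fold change −1.83), and Cd247, the CD3 zeta gene, 109 ± 9.02 CPM in DN NK1.1+ and 207 ± 7.96 CPM in CD8 beta+ libraries (−0.92). The kinase genes Lck (−0.57) and Fyn (−0.46) and the phosphatase gene Ptpn6 (−0.35), whose product SHP-1 acts downstream of inhibitory receptors, were lower too. The call of Ptpn6 (adjusted p = 0.0354) ended with scaling by library size only (adjusted p = 0.0671) and without CD8 beta+ replicate 1 or 2 or DN NK1.1+ replicate 1 or 3 (adjusted p = 0.0852 to 0.189). Zap70, the relative of Syk in T cells, was not called (0.049, adjusted p = 0.844), nor were Vav1, Vav2, Grb2, Pik3cd, Ptpn11 and Inpp5d.

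**Figure D4:**
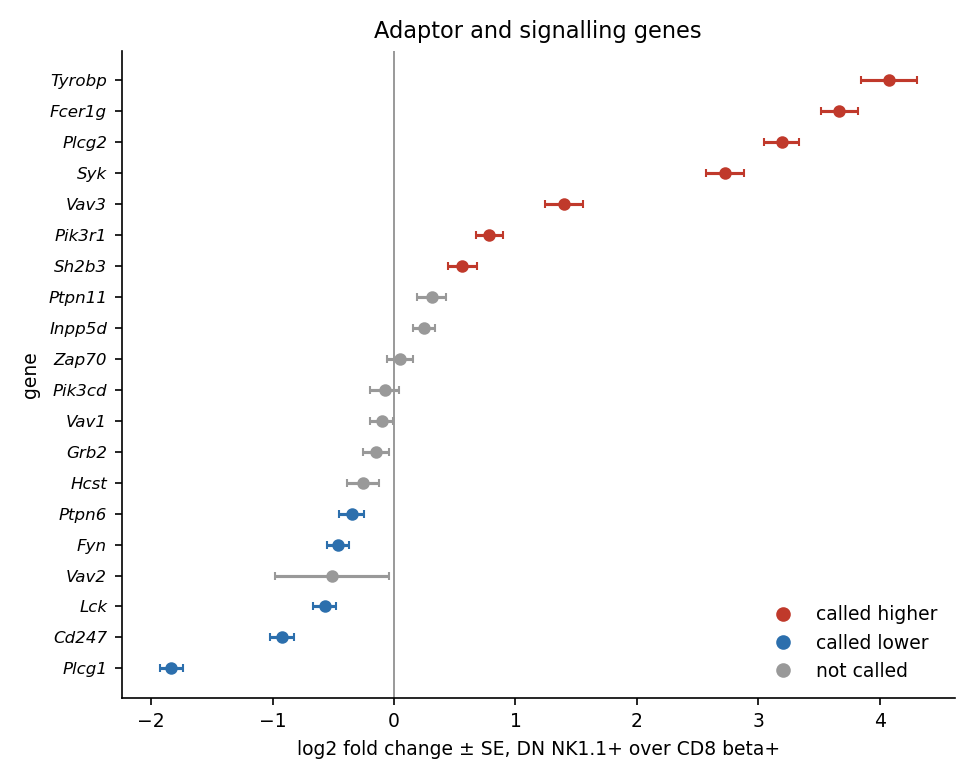
Log2 fold change (DN NK1.1+ over CD8 beta+) with its SE for the 20 adaptor and signalling genes, coloured by call and ordered by value. Tyrobp stands at 4.08 and Plcg1 at −1.83, with Hcst at −0.25 among the 8 genes not called.

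Genes of the receptors' ligands were counted because a lymphocyte may carry them too. Of 14 listed, 9 had a row in the table and 3 were tested, of which 0 were called in edgeR's test. At an unadjusted p under 0.05 it was 1 gene, as it was with DESeq2, while limma-voom called 0. That gene was Cdh1, for the KLRG1 ligand E-cadherin, and Cdh1 had 458, 443 and 443 CPM in the DN NK1.1+ libraries, against 327, 288 and 437 CPM in the CD8 beta+ libraries. The groups did not overlap (log2 fold change 0.35, SE 0.130, adjusted p = 0.0977), and the gene was called higher without CD8 beta+ replicate 3 (0.53, adjusted p = 0.00145) and with no filter on low counts (adjusted p = 0.0129). The epithelial keratin genes Krt8, Krt18 and Krt19 stood at 4.11 against 3.86, 3.38 against 1.65 and 3.44 against 0.974 CPM in DN NK1.1+ against CD8 beta+ libraries. None of these keratin genes was called, and their DN NK1.1+ means rest mostly on replicate 3 (7.95 CPM for Krt18). Epcam, another epithelial gene, was called higher, at 31.9 against 6.04 CPM (log2 fold change 2.40). The part of epithelial cells in the Cdh1 level was not tested. H2-T23, for the Qa-1 molecule that CD94 heterodimers bind, was not called: H2-T23 had 74.8, 87.6 and 107 CPM in the DN NK1.1+ libraries, against 95.6, 101 and 100.2 CPM in the CD8 beta+ libraries (log2 fold change −0.14, SE 0.125, adjusted p = 0.561). Class I genes share much sequence, and its deposited values were fractional in all 6 libraries. Ulbp1, for the NKG2D ligand MULT1, averaged 42.3 ± 3.93 CPM in DN NK1.1+ and 39.3 ± 8.98 CPM in CD8 beta+ libraries (SD, n = 3 each, log2 fold change 0.11, adjusted p = 0.765). Raet1d and Raet1e had counts in 1 library each, and H60b, H60c and Cdh4 had 0 counts in all 6.

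Genes with the most similar pattern were sought among 5965 tested genes of at least 20 CPM on average, by the root mean square difference between centred log2 CPM profiles over the 6 libraries. Nearest to the summed receptor CPM were Cd244a (0.0572), Il12rb2 (0.0945), Xcl1 (0.105), Cers6 (0.116) and Cd200r4 (0.125), with the difference in log2 units in brackets. Cd244a encodes the receptor 2B4, Il12rb2 a chain of the interleukin-12 receptor and Xcl1 a chemokine. Cd244a had 229.9, 257 and 219 CPM in the DN NK1.1+ libraries, against 36.4, 43.3 and 53.9 CPM in the CD8 beta+ libraries. It was also the gene nearest to Klrk1 (0.0467), followed by Xcl1 (0.140) and Il12rb2 (0.144). Klrc1 was nearest to Myo6 (0.0576), Ahr (0.0889) and Pde4a (0.0922), and Klrd1 to Rnf130 (0.0831), Myo6 (0.117) and Pik3cb (0.118). Klre1 was nearest to Tnfrsf9 (0.109), Lyn (0.157) and Gzma (0.169). Klrc2, Klrc3, Klri1 and Klri2 were not searched for single matches. Klrg1 was nearest to Kif4 (0.195), G2e3 (0.205) and Fam76a (0.226). The 6 libraries fall into 2 groups, so a gene with a like fold change between the groups scores as near.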

How the data were processed

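Bulk RNA sequencing was read from 1 table of 6 libraries. The labels do not name its unit. The values deposited by the authors were read to be expected counts (per gene, unscaled between libraries), since they have at most 2 decimals and are whole in 91.6% of cases. Per the submitters' processing notes, the build is mm10 and the tool named is Cell Ranger 7.1.0, which serves single-cell data. How the bulk reads were aligned and counted, with which annotation and use of strand, is not given in the sources used here. Per the labels' protocols, a Qiagen micro kit and a Tecan library kit were used. The headings of the ID and symbol columns are swapped. All 55450 IDs matched GENCODE M21 (mm10), the source of coordinates and exon lengths, and 217 IDs share a symbol.

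Expected counts were rounded and tested with edgeR 4.0.16 in R 4.3.3 (quasi-likelihood, robust, TMM, group only, all 6 libraries) where filterByExpr (count 10, total 15) kept a gene. P-values were two-sided and adjusted over 13171 genes, with a threshold of 0.05. CPM uses TMM-scaled library sizes. Ratios, as printed and as tested, had 0.5 added to each count. The SE comes from the quasi-likelihood F statistic. The fit was tested on simulated counts. Chi-square per degree of freedom between libraries of a group was 9.48 to 26.1, so none was a copy. Limits from 0 counts use 3 counts and cover counting error only.

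The members, gene lists and tests were chosen with earlier results of these data known. By rule, the text names the 9 receptor genes, the sort genes, the nearest genes by likeness, up to 4 called genes per biological list (those with the largest change and 5 CPM or more), Hcst, Tyrobp and H2-T23, and each marker list's most abundant gene. Other genes were named after their values were seen. Alternatives were other scalings and filters, DESeq2 1.42.0, limma-voom (limma 3.58.1), a replicate block, summed near copies, no rounding, 1 added to each count in ratios and leaving out each library. Single-transcript lengths and ratios with nothing added were chosen after seeing the data. The single-cell libraries were not used here.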

Additional observations from a re-analysis of the deposited data

How the results depend on the processing

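The 8 receptor genes called higher stayed called and higher in each of 16 alternatives, and Klrg1 was called in 0 of 16. In the alternative with near copies summed, Klrc1, Klrc2 and Klrc3 were judged by their sum, and Klri1 and Klri2 by theirs. Klrc3 came closest to the threshold (adjusted p = 0.0319 without CD8 beta+ replicate 1). Of all results, the counts of genes higher in DN NK1.1+ and genes lower in DN NK1.1+ ranged from 681 to 1093 and from 499 to 883 when 1 library was left out, lowest without CD8 beta+ replicate 1. Ligand genes called were 1, Cdh1, with no filter beyond 1 count, DESeq2 or the replicate block, and 0 to 1 when 1 library was left out. The log2 ratio of Klri2 to Klri1 ran from −0.54 to 1.01 without single libraries, against 0.033 with all, and was −0.19 with nothing added to the counts. Log2 fold changes near 0 changed sign in genes that were not called. Runx3 was −0.019 with upper quartile scaling. Fam76a was 0.039 with library size only, 0.050 with limma-voom and 0.0060 with the replicate block. Acta2 was −0.10 with the block. Without single libraries, Klrg1 ranged over −0.47 to 0.23, Runx3 −0.041 to 0.076, Fam76a −0.17 to 0.13, Acta2 −2.13 to 1.92, G2e3 −0.10 to 0.26, Zap70 −0.037 to 0.099, Ulbp1 −0.0099 to 0.30, Col3a1 −1.66 to 0.84 and Csn2 −0.47 to 0.82. The cause was not tested. Same-numbered libraries of the 2 groups deviated together with r = −0.042, 0.19 and 0.259, against −0.263 to 0.0974 for differently numbered ones. The numbers were not taken to pair libraries, because the labels do not say that they mark shared animals or days. Whether same-numbered libraries share a source was not tested. With the replicate block, 1137 genes were higher and 945 lower, and the receptor counts were 8 and 0. Depth limits Klri1 and Klrc3 most, and shared sequence limits Klrc1, Klrc2 and Klrc3.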

Other observations

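NKR-P1 receptors bind lectin-like ligands of the Clec2 family, whose genes lie in the same complex. Clec2d, for the ligand Clr-b of NKR-P1B, was the 1 tested neighbour that was lower: Clec2d had 37.8, 40.2 and 39.7 CPM in the DN NK1.1+ libraries, against 92.1, 78.1 and 67.7 CPM in the CD8 beta+ libraries. The groups did not overlap (log2 fold change −1.01, SE 0.132, adjusted p = 6.93e-05). Klrb1b had 205, 199 and 221 CPM in the DN NK1.1+ libraries, against 0.519, 2.09 and 0.308 CPM in the CD8 beta+ libraries. This gene, which encodes the receptor NKR-P1B, was higher (log2 fold change 7.52, SE 0.378, adjusted p = 1.43e-05). Without CD8 beta+ replicate 2 the log2 fold change of Klrb1b was 8.97. Clec2i was not called, at 28.01 against 28.5 CPM in DN NK1.1+ against CD8 beta+ libraries. Clec2d and Clec2i were named after their values were seen.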
